A study of Homo sapiens with 9 samples.

Results

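Glutathione is the tripeptide thiol that buffers peroxides and reactive metabolites in the cytosol, and 10 genes of its synthesis, recycling, use and breakdown were followed here across 9 RNA sequencing libraries. The members were taken by symbol from the deposited table of 62703 genes. Each of the 10 symbols matched 1 row, so no repeated row had to be resolved, and all 10 were among the 13443 genes that passed the expression filter of a mean of at least 1 TPM. TPM is the length-corrected share of a library's transcripts, scaled to the same total in each library, so levels can be compared between genes. The libraries came from human cells labelled HepG2, an established liver cancer line, and every group had first been loaded for 24 h with the saturated fatty acid palmitic acid at 750 µM. One group of 3 libraries is described with palmitic acid and no later agent, and the labels do not say whether it was kept for the further 12 h that the other groups had. In each comparison with palmitic acid alone, curcumin and any such extra culture time cannot be told apart. A second group of 3 was then exposed to 20 µM curcumin, the yellow polyphenol of turmeric, for 12 h. The remaining 3 were exposed for 12 h to 20 µM curcumin and 5 µM CuCl2 together. No untreated cells, no vehicle control and no cells given CuCl2 without curcumin are among these libraries.

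Glutathione is made in a pair of steps. Glutamate-cysteine ligase, built from a catalytic subunit (GCLC) and a modifier subunit (GCLM) that eases its feedback inhibition by glutathione, joins glutamate to cysteine, and glutathione synthetase (GSS) adds glycine. Cysteine is usually the scarce ingredient, and much of it enters as cystine through SLC7A11. Oxidised glutathione is returned to the thiol form by glutathione reductase (GSR), while CHAC1 and CHAC2 cleave glutathione inside the cell. Transferases such as GSTP1 and MGST1 attach it to electrophiles, and glutaredoxin (GLRX) removes it from protein thiols. Several of these genes are classical targets of the transcription factor NRF2, and CHAC1 and SLC7A11 are known targets of ATF4, a factor of the amino acid and unfolded protein responses.

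The identity of the cells and the spread of the libraries bear on every value. Of 10 genes that mark hepatocytes, all averaged less than 1 TPM (summed level 0.74 to 2.2 TPM per library), and ALB, TTR, APOB, APOH and FGB were listed at 0 in every library, so the liver label was not borne out by its defining genes. The summed level of 7 epithelial markers, mainly keratins, was 4033 to 4623 TPM in the palmitic acid group, 2764 to 3201 TPM with curcumin and 2937 to 3061 TPM with curcumin and CuCl2. Of those 7 genes 3 had a mean under 1 TPM, namely KRT19 (0.006), EPCAM (0.004) and CDH1 (0.4). The sum was thus nearly all KRT7, KRT8, KRT17 and KRT18. KRT8, KRT17 and KRT18 fell with curcumin, and KRT8 and KRT17 fell with curcumin and CuCl2. Per library, fibroblast markers summed to 9.18 to 16.59 TPM (5 of 6 genes with a mean under 1 TPM), leukocyte markers to 8.08 to 11.18 TPM (4 of 6) and endothelial markers to 0.3 to 1.25 TPM (5 of 5). The part of the keratin difference in the results below was not tested. In these bulk libraries fewer cells of a type and less RNA per cell cannot be told apart. Mitochondrially encoded genes held 10.1% to 13% of TPM, lowest in replicate 3 of palmitic acid alone, which had the lowest value of its group in 61.4% of all genes tested and in 7 of the 10 members. Replicate 2 of curcumin, at 12.4% mitochondrial TPM, had the highest value of its group in 54.4% of genes and in 8 of 10 members. Other libraries were uneven too. Replicate 1 of palmitic acid alone was the highest of its group in 52.5% of genes and 5 of 10 members. With curcumin and CuCl2, replicate 2 was the highest in 49.8% of genes and replicate 1 the lowest in 49%, each in 5 of 10 members. TPM keeps no depth, so the reads behind each value are unknown.

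The first comparison sets the curcumin libraries against those with palmitic acid alone. GCLM, CHAC1 and MGST1 rose, by 1.78-fold, 1.42-fold and 1.32-fold in mean TPM. The catalytic partner GCLC, the cystine carrier SLC7A11, GSS, GSR, CHAC2, GSTP1 and GLRX had positive estimates that did not pass the test. The test was limma on log2(TPM + 1) with Benjamini-Hochberg adjustment over all 13443 genes at 0.05. It called 3 of 10 members, all higher, where 1.96% of all genes were called, 0.759% higher and 1.21% lower. At an unadjusted p below 0.05 stood 7 of 10 members and 14% of all genes. The median log2 fold change of the 10 members was 0.34, against -0.02 over all genes tested, and all 10 estimates were positive, against 46.3% of all genes. In 7 of 10 members the libraries of the groups did not overlap, curcumin being higher, where 16.8% of all genes did not overlap, 8.15% higher and 8.61% lower.

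In the second comparison the libraries with both curcumin and CuCl2 were set against palmitic acid alone. GCLM, CHAC1 and MGST1 rose 2.03-fold, 1.44-fold and 1.32-fold in mean TPM, 3 of 10 members against 1.44% of all genes called, 0.543% higher and 0.9% lower. At an unadjusted p below 0.05 stood 5 of 10 members and 13.5% of all genes. The median of the 10 was 0.31, against -0.03 over all genes, and all 10 estimates were positive, against 43.8% of all genes. Non-overlapping groups were found in 5 of 10 members, all higher, where 19% of all genes did not overlap, 8.67% higher and 10.3% lower. Both comparisons share the palmitic acid libraries, so their likeness is not independent evidence.

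**Figure D1:**
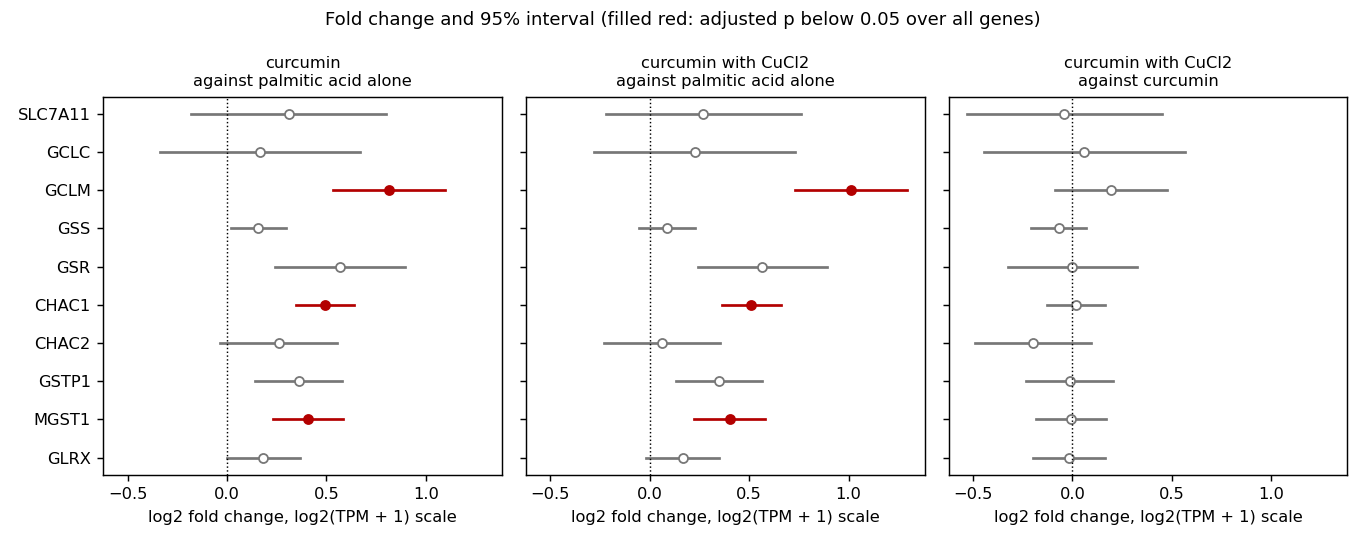
Log2 fold change of each gene on the log2(TPM + 1) scale (x axis) with its 95% interval, for 3 comparisons of 3 libraries each. Filled red points are genes with an adjusted p below 0.05. GCLM, CHAC1 and MGST1 are filled in both comparisons with palmitic acid alone and no gene is filled between the curcumin groups.

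GCLM and GCLC encode the partners of the first enzyme. GCLM passed the test in both comparisons and GCLC in neither. GCLM (chr1:93885205-93909456, minus strand, GRCh38 with GENCODE release 29, as for the positions below) stood at 42.6, 37.7 and 31.3 TPM with palmitic acid alone. It stood at 63.7, 76.6 and 58.3 TPM with curcumin, and at 74.3, 77.2 and 74.7 TPM with curcumin and CuCl2. Each of the 6 treated libraries lay above every palmitic acid library, and the libraries with CuCl2 were the closest together. The mean went from 37.2 ± 5.67 to 66.2 ± 9.43 and 75.4 ± 1.54 TPM (SD, n = 3 each). With curcumin the log2 fold change was 0.82 (SE 0.13, limma adjusted p = 0.0164), and with CuCl2 added it was 1.01 (SE 0.13, limma adjusted p = 0.00658). The first of these lost its call, with little change in size, when replicate 2 of the palmitic acid group was left out (adjusted p = 0.0614), without replicate 1 of curcumin (0.0604), with only the 2 groups compared (0.133) and with no filter (0.0533). Its estimate was smallest, at 0.59, without replicate 3 of palmitic acid alone and replicate 2 of curcumin together. It was 0.70 to 0.92 when each library was left out. The second passed in all 19 alternatives run.

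GCLC (chr6:53497341-53616970, minus strand) had 38.7, 30.7 and 21.4 TPM under palmitic acid alone, 28.4, 45.1 and 28.3 TPM with curcumin, and 31.6, 37.8 and 34.7 TPM with curcumin and CuCl2. The groups overlapped throughout, and the spread within them, a coefficient of variation of 28.6% with palmitic acid alone and 28.5% with curcumin, was the widest of the 3 synthesis genes. Its log2 fold change with curcumin was 0.17, with a 95% interval of -0.34 to 0.67 that holds both a fall and a rise. With CuCl2 added it was 0.23 (interval -0.28 to 0.73). The estimate with curcumin turned to -0.05 without replicate 3 of palmitic acid alone, to -0.05 without replicate 2 of curcumin and to -0.27 (adjusted p = 0.149) without both. It became 0.34 (adjusted p = 0.0306) when each library's mitochondrial share was a covariate. With that covariate many more of all genes were called than in the main fit, which holds for the members below too. The direction was kept in 16 of 19 alternatives, and the 3 that turned it were the leave-outs just given.

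Within each library GCLM was also set against GCLC. The ratio of GCLM to GCLC TPM was 1.10, 1.23 and 1.46 in the palmitic acid libraries. It was 2.24, 1.70 and 2.06 in the curcumin libraries, and 2.35, 2.04 and 2.15 where CuCl2 was added. In all 6 libraries with curcumin the ratio lay above that of all 3 without it. Mean ratios were 1.26 ± 0.18, 2.0 ± 0.27 and 2.18 ± 0.16 (SD, n = 3 each). The mean log2 ratio was higher by 0.66 with curcumin and by 0.80 with curcumin and CuCl2, each at p = 0.1 in a two-sided exact permutation test, the smallest value that 3 against 3 allows. Between the curcumin groups it differed by 0.13 (exact permutation p = 0.5). Replicate 3 of palmitic acid alone was low for both subunits, and its ratio of 1.46 was the highest of its group.

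**Figure D2:**
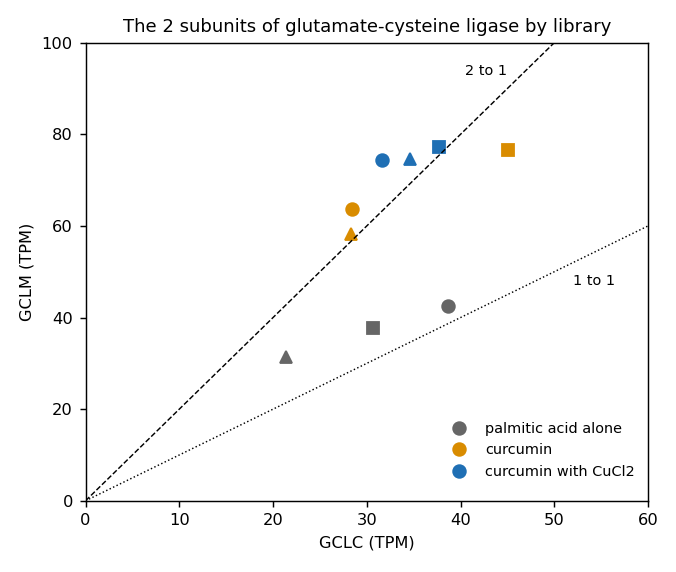
GCLM against GCLC in TPM, 1 point per library, with circles, squares and triangles for replicates 1, 2 and 3. The dotted and dashed lines mark ratios of 1 to 1 and 2 to 1. Libraries with palmitic acid alone lie between 1.10 and 1.46, and the other libraries between 1.70 and 2.35.

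The sequences before the starts of the ligase genes are shown because only one of the pair carries the searched motif there. They are from the RefSeq promoter table (GRCh38.p14), which held 7 of the 10 members, and run 5′ to 3′ on the gene's own strand. The searched letters were TGACNNNGC on either strand, the core of the antioxidant response element, to which NRF2 binds together with a small MAF protein. Capitals mark the match. GCLM spans chr1:93909456-93909680 and GCLC chr6:53545130-53545351, both on the minus strand. The last bases before each start are left out because an annotated GENCODE exon of the same gene begins there. The last printed base of GCLM, which is the last letter of its match, is kept although it lies in that exon.
GCLM: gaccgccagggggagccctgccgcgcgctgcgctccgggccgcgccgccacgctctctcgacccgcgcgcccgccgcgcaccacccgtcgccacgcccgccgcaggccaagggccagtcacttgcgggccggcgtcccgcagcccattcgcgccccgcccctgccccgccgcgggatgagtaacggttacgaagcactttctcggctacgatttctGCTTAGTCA
GCLC: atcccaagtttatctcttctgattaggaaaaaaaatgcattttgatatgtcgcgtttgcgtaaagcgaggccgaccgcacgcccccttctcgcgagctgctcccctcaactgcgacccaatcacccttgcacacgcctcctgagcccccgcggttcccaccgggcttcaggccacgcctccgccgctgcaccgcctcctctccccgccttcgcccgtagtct
The match in GCLM reads TGACTAAGC on the opposite strand and lies 34 to 26 bases before the RefSeq start. GCLC had no match in the 250 bases before its RefSeq start, which says nothing of sites farther away. That start lies inside the GENCODE span of GCLC given above, whose 5′ end on the minus strand is at 53616970. The sequence before that end was not searched. GSTP1 was the other member with a match, and 10.9% of the 35116 promoters in the table held one in the same window. A match is a description of letters and not a bound site.

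SLC7A11, the cystine carrier subunit, supplies the first enzyme's scarce substrate, and its lowest and highest libraries were those of GCLC. SLC7A11 (chr4:138164097-138242349, minus strand) had 33.7, 35.2 and 19.7 TPM under palmitic acid alone, 31.2, 46.3 and 31.5 TPM with curcumin, and 33.02, 36.67 and 34.51 TPM with curcumin and CuCl2. The groups overlapped, with replicate 3 of palmitic acid alone low and replicate 2 of curcumin high. Its log2 fold change was 0.31 with curcumin (interval -0.18 to 0.80) and 0.27 with CuCl2 added (interval -0.22 to 0.76), neither past the test. Without both of those libraries the first was -0.13 (limma adjusted p = 0.202), and with mitochondrial share as a covariate it was 0.48 (adjusted p = 0.00789). SLC3A2, the heavy chain that carries SLC7A11 to the membrane, was far more abundant at 971 ± 40.9, 987 ± 32.9 and 1018 ± 10.3 TPM, with a log2 fold change of 0.02 with curcumin.

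GSS (chr20:34928433-34956027, minus strand), which completes the molecule, varied little within groups, with a coefficient of variation between 2.03% and 3.36%. It had 62.9, 66.3 and 64.8 TPM under palmitic acid alone, 72.0, 70.8 and 73.7 TPM with curcumin, and 70.3, 69.8 and 66.1 TPM with curcumin and CuCl2. The curcumin libraries lay above all 6 others, by as little as the step from 70.3 to 70.8 TPM, and the CuCl2 libraries overlapped with palmitic acid alone. The difference from palmitic acid alone was small, a log2 fold change of 0.16 (SE 0.06) with limma adjusted p = 0.285, and 0.09 with CuCl2 added (adjusted p = 0.61).

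GSR (chr8:30678061-30727999, minus strand), the reductase that regenerates the thiol form, had the second largest estimate of the 10 in both comparisons but missed the threshold. Its levels were 47.4, 44.7 and 32.0 TPM under palmitic acid alone, 57.5, 70.1 and 56.2 TPM with curcumin, and 57.3, 64.2 and 61.6 TPM with curcumin and CuCl2. All 6 treated libraries exceeded all 3 with palmitic acid alone. GSR had a log2 fold change of 0.57 in both comparisons (SE 0.14 each), with limma adjusted p = 0.0942 with curcumin and 0.0982 with CuCl2 added. GSR passed in 3 of 19 alternatives in each comparison and in 0 of the 9 that leave out 1 library, with adjusted p up to 0.281 and 0.295. It passed under median-of-ratios scaling (adjusted p = 0.0158 and 0.0154) and with mitochondrial share as a covariate (0.000253 and 0.0003). Without replicate 3 of palmitic acid alone and replicate 2 of curcumin together the estimates were 0.30 and 0.40 and passed (0.0251 and 0.0142). That setting was added after the values were seen. Both it and the covariate called many more of all genes than the main fit, so a pass there is not particular to GSR.

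**Figure D3:**
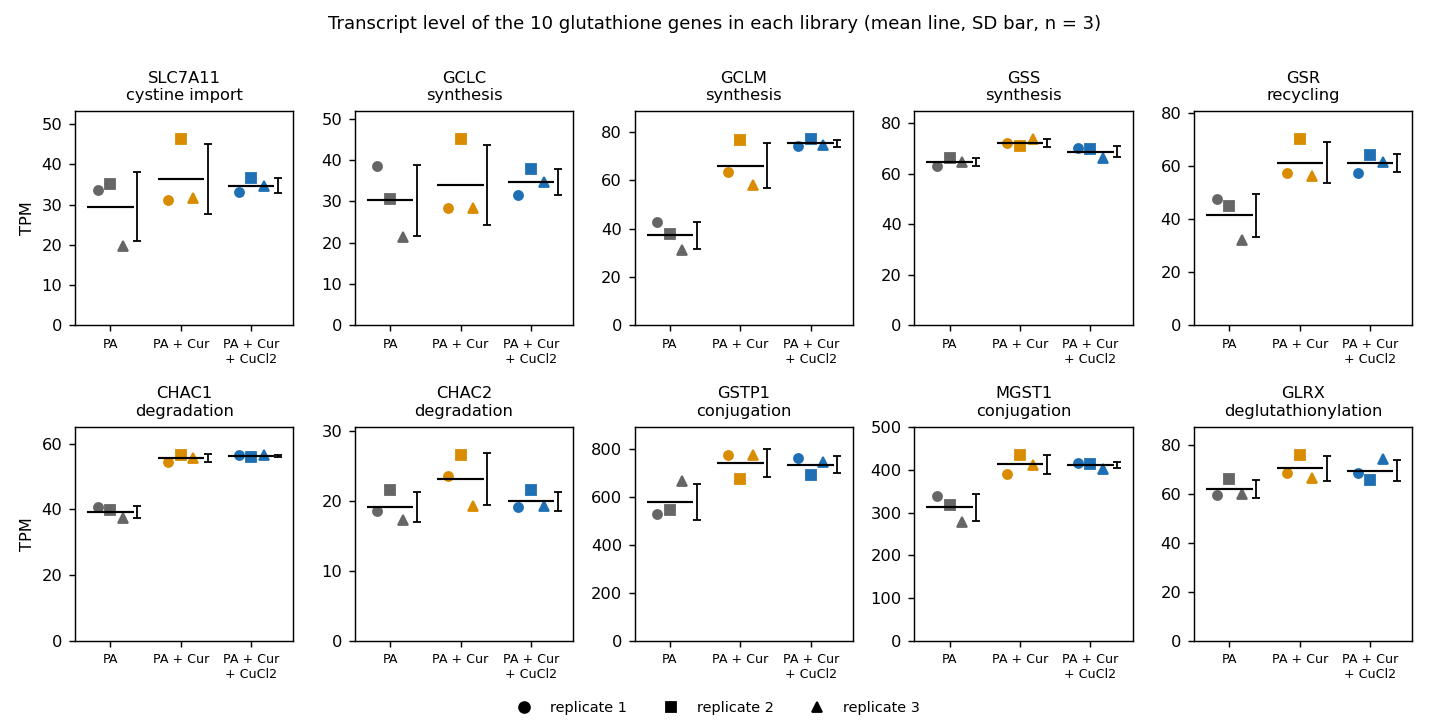
TPM of each gene (y axis, from 0) in the 9 libraries, grouped as palmitic acid alone (PA), with curcumin (Cur) and with curcumin and CuCl2. Lines are means and bars SD of 3 libraries. The treated libraries of GCLM, GSR, CHAC1, GSTP1 and MGST1 all lie above those with palmitic acid alone, while those of GCLC, SLC7A11 and CHAC2 overlap with it.

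On the breakdown side, CHAC1 rose and its relative CHAC2 did not pass. Both encode gamma-glutamylcyclotransferases that cleave glutathione, CHAC1 being the stress-inducible one and CHAC2 the constitutive and slower one. CHAC1 (chr15:40952962-40956519, plus strand) had 40.6, 39.8 and 37.2 TPM under palmitic acid alone, 54.4, 56.6 and 55.7 TPM with curcumin, and 56.5, 55.9 and 56.5 TPM with curcumin and CuCl2. No library came between 40.6 and 54.4 TPM. The mean went from 39.2 ± 1.77 to 55.6 ± 1.11 and 56.3 ± 0.343 TPM (SD, n = 3 each). That is a log2 fold change of 0.49 with curcumin (SE 0.07, limma adjusted p = 0.00755) and 0.51 with CuCl2 added (SE 0.07, adjusted p = 0.00705). The first missed the threshold without replicate 3 of curcumin (adjusted p = 0.0521) and with only the 2 groups compared (0.0909), and the second without replicate 3 of curcumin with CuCl2 (0.052), at nearly the same size.

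CHAC2 (chr2:53767792-53775196, plus strand) had 18.6, 21.6 and 17.3 TPM under palmitic acid alone, 23.7, 26.7 and 19.3 TPM with curcumin, and 19.1, 21.6 and 19.2 TPM with curcumin and CuCl2. It was the least abundant of the 10 in every group, and its groups overlapped. CHAC2 had a log2 fold change of 0.26 with curcumin (interval -0.03 to 0.55) and 0.06 with CuCl2 added (interval -0.23 to 0.35). Whether CHAC1 and CHAC2 differed in their response was not tested.

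A stretch before the CHAC1 start is shown because it holds the core letters of the C/EBP-ATF response element, the kind of site that ATF4 and C/EBP proteins bind. The longer form TGATGNAAT had no match in the 7 members with a promoter, and 0.888% of promoters held it. The core TGATGCAA was added after the sequences had been seen, so its match is only a description. It occurred in 0.772% of promoters in the table. The GSTP1 stretch with the antioxidant response element core is given beside it, both on the gene's strand with the match in capitals.
CHAC1: tcccctgccgTTGCATCActcctgccaggt
GSTP1: gccggcgccgTGACTCAGCactggggcgga
The CHAC1 stretch lies at chr15:40953252-40953281, with the match 209 to 202 bases before the RefSeq start and on the opposite strand. The GSTP1 stretch lies at chr11:67583736-67583765, with the match 66 to 58 bases before the start. Both matches fall inside an annotated GENCODE exon of the same gene.

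Among the genes that use glutathione, MGST1 rose and GSTP1 and GLRX did not pass. MGST1 (chr12:16347142-16609259, plus strand) encodes a membrane-bound transferase that also reduces lipid peroxides. It had 340, 319 and 278 TPM under palmitic acid alone, 391, 436 and 413 TPM with curcumin, and 415, 415 and 403 TPM with curcumin and CuCl2. All 6 libraries with curcumin were above all 3 without it. Its log2 fold change was 0.41 with curcumin (SE 0.08, limma adjusted p = 0.0374) and 0.40 with CuCl2 added (SE 0.08, adjusted p = 0.0432). These calls lay near the threshold: each passed in 8 of 19 alternatives and, of the 9 that leave out 1 library, only without replicate 1 or replicate 3 of palmitic acid alone, with adjusted p up to 0.177 and 0.179, while the estimate stayed between 0.29 and 0.47 in the first and 0.32 and 0.47 in the second. With the replicate number as a block the adjusted p was 0.0554 and 0.0614.

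GSTP1 (chr11:67583595-67586656, plus strand), the pi class transferase and a gene known to be low in normal adult hepatocytes, was the most abundant of the 10. It had 526, 543 and 665 TPM under palmitic acid alone, 775, 672 and 773 TPM with curcumin, and 762, 692 and 744 TPM with curcumin and CuCl2. The groups did not overlap, but only by the small step from 665 to 672 TPM. Its libraries ran against those of GCLC and SLC7A11, with replicate 3 of palmitic acid alone the highest of its group and replicate 2 of curcumin the lowest. GSTP1 had a log2 fold change of 0.36 with curcumin (SE 0.10, limma adjusted p = 0.11) and 0.35 with CuCl2 added (SE 0.10, adjusted p = 0.127). Without replicate 3 of palmitic acid alone these became 0.47 (adjusted p = 0.0164) and 0.45 (adjusted p = 0.0196), and with mitochondrial share as a covariate 0.29 in both (0.00168 and 0.00173). In each comparison GSTP1 passed in 3 of 19 alternatives and in 1 of the 9 that leave out 1 library. Leaving out replicate 3 of palmitic acid alone called 619 and 527 of all genes, against 264 and 194 in the main fit. A pass there is not particular to GSTP1.

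GLRX (chr5:95751319-95823005, minus strand) had 59.7, 66.13 and 60.01 TPM under palmitic acid alone, 68.6, 76.2 and 66.7 TPM with curcumin, and 68.7, 65.9 and 74.2 TPM with curcumin and CuCl2. The curcumin libraries just cleared those with palmitic acid alone, and the CuCl2 libraries overlapped with them. GLRX had a log2 fold change of 0.18 (limma adjusted p = 0.352) and 0.17 (adjusted p = 0.419).

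**Figure D4:**
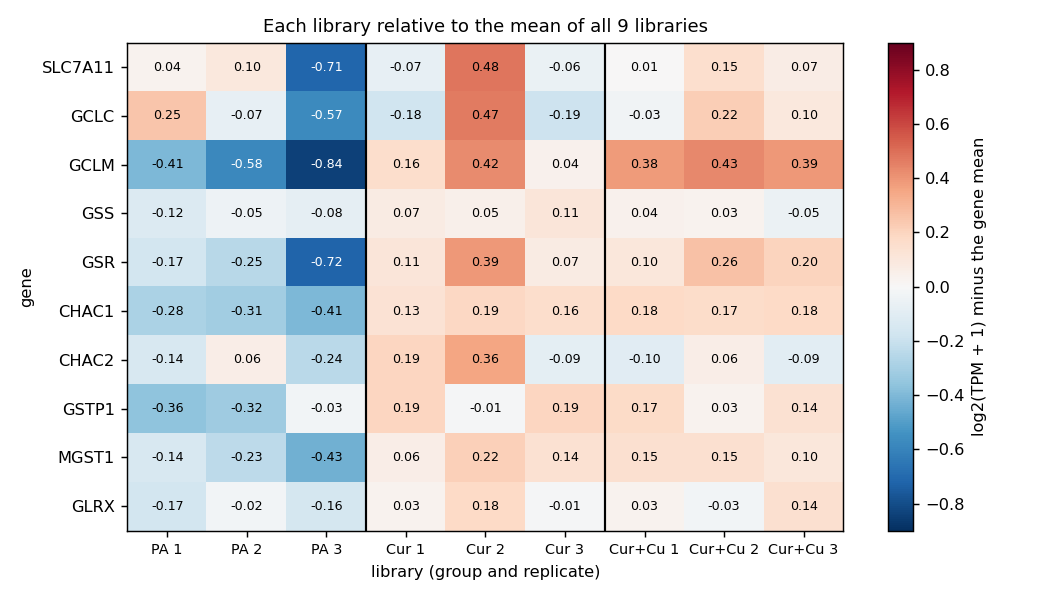
Log2(TPM + 1) of each gene minus its mean over the 9 libraries, by library (Cur+Cu is curcumin with CuCl2). Replicate 3 of palmitic acid alone reaches -0.71 for SLC7A11, -0.57 for GCLC and -0.72 for GSR but only -0.03 for GSTP1. The called members GCLM, MGST1 and CHAC1 are at -0.84, -0.43 and -0.41 in that library. Replicate 2 of curcumin reaches 0.48 for SLC7A11, 0.47 for GCLC and 0.425 for GCLM. These values also hold the differences between groups.

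The third comparison sets curcumin with CuCl2 against curcumin. Of the 10 members 0 passed and 0 had an unadjusted p below 0.05, and 3 of 10 estimates were positive, against 45.6% of all genes. Over all 13443 genes limma called 0 (0% of genes), 215 genes (1.6%) had an unadjusted p below 0.05, and the alternatives called between 0 and 5. GCLM was 1.14 times as high in mean TPM, with a log2 difference of 0.19 and a 95% interval of -0.09 to 0.48. For CHAC1 the log2 difference was 0.02 (interval -0.13 to 0.17), for MGST1 -0.01 (interval -0.18 to 0.17) and for GSTP1 -0.01 (interval -0.23 to 0.21). As folds on the TPM + 1 scale, the CHAC1 interval runs from 0.915 to 1.12 and that of MGST1 from 0.881 to 1.13. The log2 intervals are wider for GCLC (-0.44 to 0.57), SLC7A11 (-0.53 to 0.45), GSR (-0.33 to 0.33) and CHAC2 (-0.49 to 0.10), and GLRX had -0.20 to 0.16. GSS was the only member whose curcumin groups did not overlap, being lower with CuCl2 (log2 difference -0.07, interval -0.21 to 0.07), where 6.24% of all genes did not overlap, 2.63% higher and 3.61% lower.

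By mean TPM, GSTP1 and MGST1 were the highest of the 10 and CHAC2 the lowest in each group, and GCLM changed place. With palmitic acid alone the order ran GSTP1, MGST1, GSS, GLRX, GSR, CHAC1, GCLM, GCLC, SLC7A11 and CHAC2, from 578 ± 75.8 down to 19.1 ± 2.19 TPM. Neighbours overlapped in their libraries from GSS to GLRX and from GSR down to CHAC2. GCLM was in position 7 there, in position 5 with curcumin and in position 3 with curcumin and CuCl2, where its lowest library, at 74.3 TPM, was just above the highest of GLRX, at 74.2 TPM. With curcumin GSS and GLRX came next after MGST1, then GCLM, GSR and CHAC1, each overlapping the one after it from GSS down to CHAC1, then SLC7A11 and GCLC. With CuCl2 added GLRX, GSS, GSR, CHAC1, SLC7A11 and GCLC followed GCLM, and only GLRX with GSS and SLC7A11 with GCLC overlapped. GCLC and SLC7A11 were neighbours in every group, and their libraries overlapped.

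Other genes of glutathione metabolism were counted from a list by role. Of 59 further pathway genes listed, 41 could be tested, and with curcumin 2 rose, 1 fell and 38 did not pass, with a median log2 fold change of 0.04, where 1.96% of all genes were called. With CuCl2 added 1 rose, 0 fell and 40 did not pass, with a median of 0.11, where 1.44% of all genes were called. Both that rose with curcumin were membrane-bound relatives of MGST1. MGST3 went from 258 ± 18.6 to 376 ± 29.6 TPM (log2 fold change 0.54, limma adjusted p = 0.0116) and MGST2 from 43.6 ± 2.46 to 58.1 ± 1.07 TPM (0.41, adjusted p = 0.0402). With CuCl2 added the one that rose was MGST3, at 386 ± 13.01 TPM (0.58, adjusted p = 0.00796), and MGST2 had 0.30 (adjusted p = 0.115). GGT5, a gamma-glutamyl transferase gene of low level, fell with curcumin from 2.92 ± 0.624 to 1.08 ± 0.383 TPM (-0.92, adjusted p = 0.0465) and had -0.78 with CuCl2 added (adjusted p = 0.0866). By role, the transferases gave 2 of 11 higher with curcumin and 1 of 11 with CuCl2 added (medians 0.19 and 0.18). The breakdown genes gave 1 of 6 lower and 0 of 6 (medians -0.16 and -0.09). At an unadjusted p below 0.05 stood 5 and 6 of the 11 transferases, and 2 and 2 of the 6 breakdown genes. Among 11 peroxidases and other users of glutathione limma called 0 in either comparison, with 2 and 4 at an unadjusted p below 0.05 (medians 0.11 and 0.13). Among 13 genes of precursor supply and transport it called 0, with 1 and 1 at an unadjusted p below 0.05 (medians 0.01 and 0.07). Over all genes the shares at an unadjusted p below 0.05 were 14% and 13.5%.

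Of 14 genes for regulators limma called 0 in either comparison with palmitic acid alone, and 6 and 5 of the 14 had an unadjusted p below 0.05, against 14% and 13.5% of all genes. With curcumin those 6 were KEAP1, ATF4 and TRIB3 with positive estimates and ATF3, MAFK and MAFF with negative ones. NFE2L2, which encodes NRF2, was at 99.0 ± 20.9, 92.3 ± 9.12 and 92.4 ± 1.57 TPM. KEAP1, which targets NRF2 for degradation, was at 66.9 ± 3.54, 83.2 ± 3.34 and 81.5 ± 4.31 TPM, a log2 fold change of 0.31 with curcumin (limma adjusted p = 0.066). ATF4 was at 772 ± 6.21, 886 ± 28.8 and 890 ± 13.3 TPM, a log2 fold change of 0.20 (adjusted p = 0.0837). TRIB3, a pseudokinase gene, had 0.16 (adjusted p = 0.162). ATF3, a stress-induced factor of the same family as ATF4, had the largest estimate of the 14, -0.58 (adjusted p = 0.0897), at 219 ± 46.8, 144 ± 16.2 and 146 ± 3.93 TPM. The small MAF genes MAFK and MAFF had -0.30 (adjusted p = 0.182) and -0.21 (adjusted p = 0.342). Of 8 NRF2 reference genes outside glutathione metabolism, 7 rose with curcumin and 6 with CuCl2 added, with medians of 0.68 and 0.67. The largest log2 fold changes with curcumin were those of the heme oxygenase gene HMOX1 (2.6), the heme transporter gene SLC48A1 (1.24), OSGIN1 (0.80) and SRXN1 (0.71), and with CuCl2 added they were 2.5, 1.17, 0.72 and 0.78. Of 10 ATF4 reference genes, a list that holds CHAC1 and SLC7A11, 3 rose with curcumin and 1 fell, and 3 rose and 0 fell with CuCl2 added, with medians of 0.24 and 0.25. Those that rose were CHAC1, the asparagine synthetase gene ASNS (0.53 and 0.52) and the serine synthesis gene PHGDH (0.50 and 0.47), and the one that fell was STC2 (-0.45, adjusted p = 0.0498).

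Genes with the profile most like that of each called member were found over the 9 libraries by the root mean square difference between centred log2(TPM + 1) values, a description with no test. Nearest to GCLM were UNKL (0.11), the sulfiredoxin gene SRXN1 (0.13) and the cytochrome P450 gene CYP4F11 (0.15). CYP4F11 was near the filter, at 1.11 ± 0.19, 3.02 ± 0.23 and 3.47 ± 0.66 TPM, where the log2(TPM + 1) scale understates changes. Nearest to CHAC1 were MTARC1 (0.04), the lysosomal alpha-galactosidase gene GLA (0.04) and CREG1 (0.04). Nearest to MGST1 were PCNA, the DNA polymerase clamp gene, HTATIP2 and FANCL (0.05 each). GLA, for example, was at 143 ± 9.95, 212 ± 2.08 and 208 ± 5.05 TPM, and CHAC1 at 39.2, 55.6 and 56.3 TPM.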

How the data were processed

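Messenger RNA of 9 libraries was analysed from the table of TPM values that the authors deposited. Per the submitters' processing notes, HISAT2 2.1.0, RSEM 1.3.3 and GRCh38.p13 were used, with no roles given; the annotation release is not given in the sources used here. TPM keeps no depth, so no count model was used. How reads shared between near-identical copies were assigned is not given, so values of genes with close relatives or pseudogenes are less certain.

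Values were taken as log2(TPM + 1), which understates changes of low genes, for the 13443 genes averaging 1 TPM or more. Limma 3.58.1 under R 4.3.3 fitted all 9 libraries together, 1 mean for each group, with a variance trend, two-sided, with Benjamini-Hochberg adjustment over all genes at 0.05. The model was run on simulated data with noise drawn independently for each gene and library. No library shifted as a whole there, so those runs say nothing about such shifts in the real libraries. Sample titles gave the groups and replicate numbers. The labels do not say that replicates were separate cultures, so p-values measure only how these libraries vary, and that spread may be technical. The ligase ratio was tested by exact permutation. The members, the gene lists, the tests and the alternatives were chosen with earlier results of these data known, and 1 alternative was added after these values were seen. All members are named; from the other lists every gene past the threshold may be named, at most 4 a list and comparison, and others named were chosen after their values were seen. Of the 59 further pathway genes, 17 were under the filter and the symbol of 1 matched no row of the deposited table. Protein sequences are not used here. Figures were drawn with matplotlib 3.10.9.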

Additional observations from a re-analysis of the deposited data

How the results depend on the processing

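Each member was recomputed under 18 listed alternatives and under 1 added after the data were seen, which leaves out replicate 3 of palmitic acid alone and replicate 2 of curcumin together. GCLM, CHAC1, MGST1, GSR, GSTP1, GSS and GLRX kept a positive direction against palmitic acid alone in all 19, in both comparisons. The number of members called with curcumin, 3 of 10, was 1 without a filter, 0 with only the 2 groups compared, 7 with mitochondrial share as a covariate, 5 without both of those libraries, and 1 to 4 when each library was left out. With curcumin and CuCl2 the same count of 3 was 7 with the covariate, 5 without both libraries and 1 to 4 with each library left out. Genes called with curcumin numbered 264 in all, and 104 without a filter, 35 with only 2 groups, 1505 with the covariate, 130 without the variance trend, 3151 without both libraries and 54 to 619 with each library left out, the lowest without replicate 3 of curcumin and the highest without replicate 3 of palmitic acid alone. With curcumin and CuCl2 they numbered 194, and 114 without a filter, 65 with 2 groups, 1436 with the covariate, 1981 without both libraries and 46 to 527 with each left out, the lowest without replicate 1 or 3 of curcumin with CuCl2 and the highest without replicate 3 of palmitic acid alone. Between the curcumin groups the count of 0 became 1 with a pseudocount of 5, 3 without a filter, 3 with 2 groups, 5 without both libraries and 0 to 4 with each left out, and no member was among them in any setting.

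Leaving out both libraries moved the median of all genes with curcumin to -0.12, and turned GCLC to -0.27 and SLC7A11 to -0.13. With each library left out, GCLC with curcumin ranged from -0.055 to 0.36, and CHAC2 with curcumin and CuCl2 from -0.0037 to 0.15, also -0.0037 without both libraries. Between the curcumin groups signs changed for values near 0. Under median-of-ratios scaling GSR was 0.0097 and MGST1 0.0046, and without both libraries GSR was 0.10, SLC7A11 0.14, MGST1 0.034 and GLRX 0.038. With each left out the ranges were -0.050 to 0.28 for GCLC, -0.081 to 0.028 for GSTP1, -0.058 to 0.10 for GSR, -0.14 to 0.14 for SLC7A11, -0.045 to 0.034 for MGST1 and -0.065 to 0.038 for GLRX. The cause of these changes was not tested. The log2 difference of the ligase ratio stayed between 0.57 and 0.77 with curcumin and between 0.70 and 0.90 with CuCl2 added when each library was left out.

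No pairing by replicate number was evident, and the labels do not say whether there was one. Deviations from the group means correlated across genes at -0.269 to 0.246 for same-numbered libraries. For differently numbered libraries of different groups they correlated at -0.382 to 0.262. With a replicate block 2 members were called in each comparison with palmitic acid alone, MGST1 losing its call, and 177 and 147 genes in all.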
